A study of Mus musculus with 24 samples.

Results

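Mice that had lost both Miro genes in heart muscle were compared with controls at the younger of the study's 2 labelled ages. The comparison used 12 of the 24 polyadenylated RNA libraries of the series, all those labelled day 1. They were 6 DKO libraries, from mice in which Rhot1 and Rhot2 were deleted selectively in cardiomyocytes from the embryonic stage, named 29, 33, 35, 55, 69 and 79, and 6 control libraries, named 13, 14, 22, 25, 56 and 62. The other 12 libraries, 6 DKO and 6 control, were labelled day 7. The labels give the genotype of the second group only as control, and neither the Cre driver nor the strain is stated. The cell type is labelled cardiomyocyte, but RNA was taken from left ventricular tissue, so unrecombined cells of the ventricle were in every library. No label ties a library to an animal of its own, so p-values here reflect the spread among libraries, part of which may be technical.

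Rhot1 and Rhot2 encode Miro1 and Miro2, calcium-binding GTPases of the outer mitochondrial membrane that link mitochondria to kinesin and dynein motors through TRAK adaptors. Cells whose mitochondria are disturbed often start the integrated stress response, in which phosphorylation of eIF2alpha favours translation of the transcription factor ATF4. ATF4 raises transcription of genes for amino acid synthesis and uptake, tRNA charging and the circulating factors FGF21 and GDF15.

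Total counts per library were 30318018 to 37967935 in DKO and 36145645 to 45806171 in controls (exact permutation test over libraries, two-sided, p = 0.00649, adjusted over 5 library measures 0.0162). Pseudogenes took 8.90 to 10.3% of counts in DKO and 7.37 to 9.04% in controls (exact permutation p = 0.00649, adjusted 0.0162). All 37 listed genes of the mitochondrial genome had 0 counts, so they could not be compared. A set of 15 genes that duplicate such genes held a share of 5.74 to 7.23% in DKO libraries and 4.38 to 6.36% in controls. This share did not pass (exact permutation p = 0.0952, adjusted 0.119), nor did that of Myh6 (p = 0.498, adjusted 0.498). These 15 genes are counted among the pseudogenes. The mean pseudogene share was 1.26 percentage points higher in DKO, of which these 15 genes held 0.838 points. The remainder was not tested on its own. The atrial light chain Myl7 ranged over 0.564 to 17.3 CPM, counts scaled to library size, in DKO and 1.34 to 304 CPM in controls (exact permutation p = 0.0238, adjusted 0.0397), and 4 controls (13, 14, 25 and 56, called the high-Myl7 controls here) exceeded 50 CPM. The cardiomyocyte markers were all detected, with a summed level of 54926 to 59634 CPM in DKO and 56014 to 69046 CPM in controls. The first principal component, with 35.4% of the variance, separated DKO from controls, and the second, with 16%, set control 13 apart. The age labels ran against the known order of genes that change after birth. In controls, 11 of 11 tested genes known as higher in fetal or newborn heart were called higher at labelled day 7 than at labelled day 1 (edgeR, adjusted p under 0.05). They included H19, Igf2 and Myh7, and their median log2 difference was 1.65. Of 12 genes known to rise after birth, 10 were called lower (median -0.79). The ages are therefore written as labelled throughout. The Y-linked gene Eif2s3y was at 49.9 CPM or more in all 12 libraries labelled day 1, but of those labelled day 7 it was detected in 2 of 6 DKO and 2 of 6 control libraries, the others being at 0.154 CPM or less. Every comparison between the labelled ages therefore also sets libraries that all carry a Y chromosome against a mixture. Among controls with Eif2s3y, which leaves 2 at labelled day 7, 11 of the 11 early genes were higher there and 9 were called. Of the 12 later genes, 11 were lower at labelled day 7 and 10 were called.

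**Figure D1:**
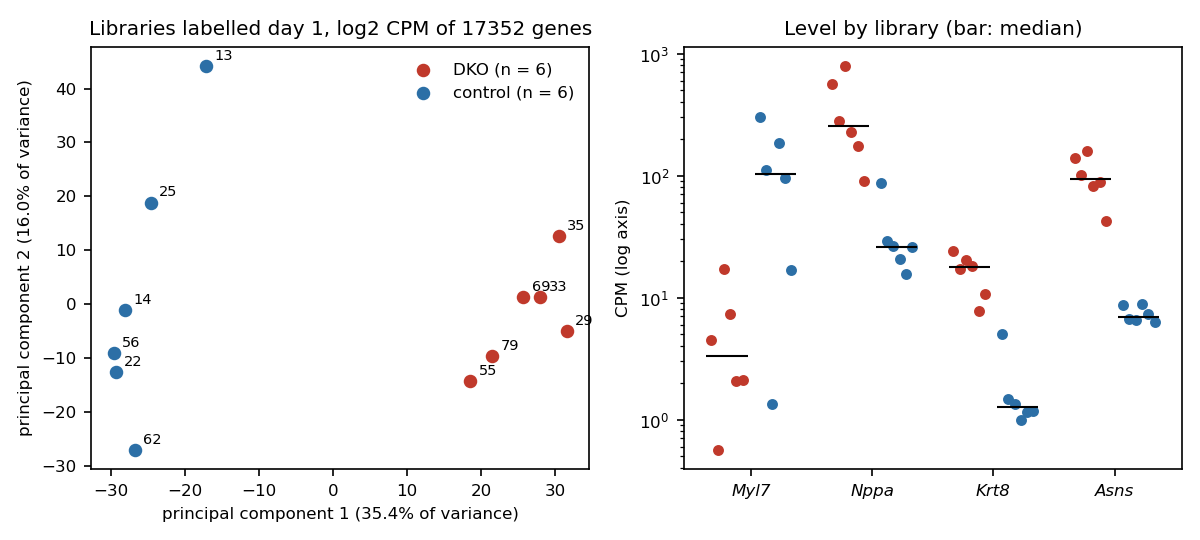
Left, the 12 libraries labelled day 1 on the first 2 principal components of log2 CPM over 17352 genes. Right, CPM on a log axis for 4 genes in each library, with DKO left of control and a bar at the median. DKO libraries lie at 18.5 to 31.5 on the first component and controls at -29.6 to -17.2, while Myl7 overlaps between the groups and Asns does not.

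Of the deleted genes, Rhot1 was lower in DKO ventricles. It had 107 CPM in the lowest, a median of 118 and 136 CPM in the highest DKO library, against 129, 164 and 173 CPM in controls. All DKO libraries but 79 lay below every control, and control 13 was the lowest of its group. The log2 fold change was -0.42 ± 0.08 (SE, adjusted p = 0.0011 by edgeR's quasi-likelihood test, n = 6 and 6). Rhot2 was listed at 0 in all 24 libraries and could not check the labels. All of its exonic bases lie inside the span of other genes in the GENCODE annotation, as do those of 1297 protein-coding genes, of which 1038 (80.0%) were at 0. Among protein-coding genes with no exonic base inside another gene, 1496 of 13789 (10.8%) were at 0. In bulk tissue, less RNA per cell and fewer cells of a type cannot be told apart, for Rhot1 or for any gene below.

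Across all 17352 genes tested, 3053 (17.6%) passed an adjusted p of 0.05, 1702 of them higher (9.81%) and 1351 lower (7.79%) in DKO. The median log2 fold change over all genes was -0.02. Protein-coding genes gave 884 rises (6.11%) and 1197 falls (8.27%) among 14475, and the change exceeded 2-fold in 134 and 82 of them. The 2 groups of libraries did not overlap in 1094 genes that were higher in DKO (6.3%) and 537 that were lower (3.09%). Pseudogenes gave 757 rises and 26 falls among 1594, with a median log2 fold change of 0.39, beside the higher pseudogene share of DKO libraries given above, whose part in the result was not tested. With pseudogenes left out, 1929 genes passed, and without DKO 29 the total was 2307. Of the 3053 calls, 2270 were of genes still tested without pseudogenes, and 1834 of these kept their call. Counts below are to be read against these backgrounds.

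Genes that fell were longer than genes that rose. Protein-coding falls had a median span of 74.1 kb from start to end (quartiles 24.9 and 166 kb) and rises of 22.0 kb (8.3 and 49.0 kb), against 26.7 kb for all protein-coding genes tested (11.6 and 64.9 kb). Spans over 100 kb were found in 492 of 1197 falls (41.1%), 96 of 884 rises (10.9%) and 2326 of 14475 tested (16.1%). Over all genes, pseudogenes included, the fitted trend of log2 fold change with span was 0.18 at 2 kb and -0.13 at 200 kb. Between these it was -0.007 at 10000 bases and -0.034 at 50000 bases. The part of pseudogenes in the trend was not tested. With this trend removed, 2002 of the 3053 calls were kept and 161 changed sign. Of 297 named fold changes, 52 then lost their call and 1 changed sign, and only some of these are pointed out below.

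**Figure D2:**
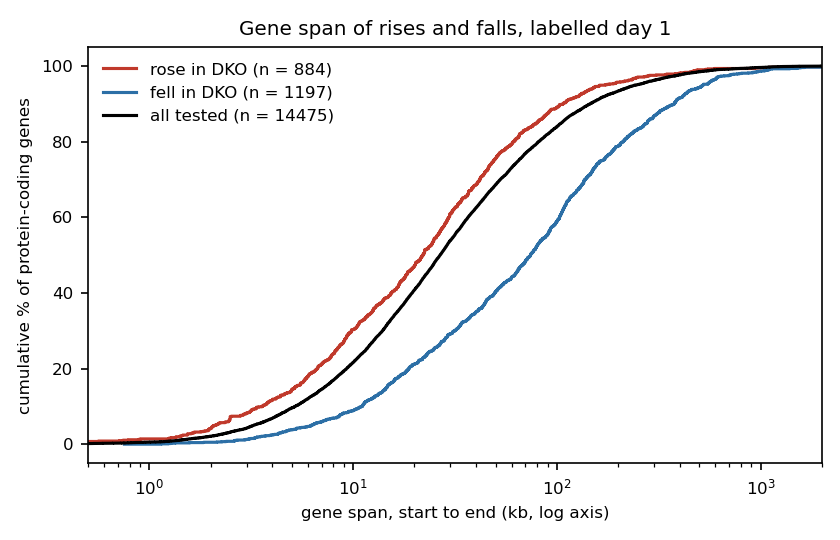
Cumulative percent of protein-coding genes against gene span in kb on a log axis, for genes that rose, genes that fell and all tested at labelled day 1. The curve of the falls lies to the right, with a median of 74.1 kb against 22.0 kb for the rises.

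The genes that rose most included known targets of ATF4. The element through which ATF4 and its C/EBP partners bind amino acid response genes is often written TGATGNAA, and the promoter table of RefSeq (GRCm38.p6) was searched for it and for its reverse complement TTNCATCA, in a window of 250 bases before to 50 after the start. The letters were found in 333 of 11430 tested protein-coding genes with a promoter (2.9%), in 35 of 698 rises (5.0%) and in 24 of 897 falls (2.7%). For changes over 2-fold they were found in 7 of 103 rises (6.8%) and 3 of 61 falls (4.9%). Among the 46 genes that rose in 6 stress response lists described next, 36 had a promoter and 13 of these held the letters (36.1%). By list these were 3 of 8 stress response factors, 0 of 7 serine and folate enzymes, 2 of 4 amino acid transporters, 2 of 7 amino acid enzymes, 5 of 8 tRNA synthetases and 1 of 2 hormones. The lists were drawn up around this response with earlier results known, and the share among their members that did not rise was not counted. These shares therefore cannot tell rising members from the others of their lists. A match describes the letters only and shows no binding. The 150 bases before the start are printed for 5 genes from different lists that hold the letters there and rose, 5′ to 3′ on the strand of the gene, with the matching letters in capitals.
Asns, asparagine synthetase, chr6:7693210-7693359, minus strand: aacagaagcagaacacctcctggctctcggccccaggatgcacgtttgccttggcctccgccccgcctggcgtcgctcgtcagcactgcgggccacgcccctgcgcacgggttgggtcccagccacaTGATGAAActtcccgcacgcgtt
Fgf21, a circulating hormone, chr7:45615491-45615640, minus strand: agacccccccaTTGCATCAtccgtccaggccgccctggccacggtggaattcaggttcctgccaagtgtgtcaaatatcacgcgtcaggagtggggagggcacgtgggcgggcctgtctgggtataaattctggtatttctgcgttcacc
Nupr1, a stress-inducible chromatin protein, chr7:126625471-126625620, minus strand: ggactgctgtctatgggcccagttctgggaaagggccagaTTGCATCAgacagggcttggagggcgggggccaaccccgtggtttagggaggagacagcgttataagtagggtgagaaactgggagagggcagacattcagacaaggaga
Gars, glycyl-tRNA synthetase, chr6:55037851-55038000, plus strand: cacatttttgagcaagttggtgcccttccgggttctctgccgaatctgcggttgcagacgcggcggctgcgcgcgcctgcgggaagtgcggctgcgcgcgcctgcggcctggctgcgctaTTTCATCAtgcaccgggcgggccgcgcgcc
Slc7a11, the cystine and glutamate exchanger, chr3:50443614-50443763, minus strand: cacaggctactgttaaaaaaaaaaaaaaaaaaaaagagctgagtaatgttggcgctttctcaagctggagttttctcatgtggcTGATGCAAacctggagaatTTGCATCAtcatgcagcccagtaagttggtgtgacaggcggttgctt
In these windows the letters begin 23, 139, 110 and 30 bases before the start in the first 4 genes, and 66 and 47 bases before it in Slc7a11, which holds them on both strands. The windows of Phgdh, Mthfd2, Psat1, Sesn2, Atf5 and Gdf15 do not contain these letters.

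Factors and effectors of the ATF4 and CHOP arm rose in 8 of 21 tested members, and none fell; the list's median log2 fold change was 0.26. Trib3, a pseudokinase that feeds back on the pathway, had 11.8 CPM in the lowest, a median of 39.9 and 71.9 CPM in the highest DKO library, against 2.82, 4.14 and 5.85 CPM in controls (log2 fold change 3.30 ± 0.35, adjusted p = 3.4e-05). Every DKO library lay above every control, and DKO 79 was by far the lowest. Atf5, a sister factor of ATF4 linked to the mitochondrial unfolded protein response, had 22.5, 27.8 and 38.1 CPM in DKO and 6.13, 9.25 and 13.3 CPM in controls, again without overlap (1.59 ± 0.17, 1.5e-05). Nupr1 had 10.6, 29.9 and 46.4 CPM in DKO against 4.96, 7.28 and 10.1 CPM in controls (2.02 ± 0.29, 0.00036). Only DKO 79 came close to the highest control. Sesn2, a sestrin that restrains mTORC1 on leucine shortage, also rose (1.21, adjusted p = 0.00018). The factors themselves moved less: Atf4 stood at 35.5, 48.1 and 60.9 CPM in DKO and 23.6, 33.4 and 35.4 CPM in controls (0.64 ± 0.13, 0.0026), and Ddit3, which encodes CHOP, at 0.72 ± 0.14 (0.0032), neither with overlap. Chac1, a glutathione-degrading enzyme downstream of CHOP, had 6.42 to 11.1 CPM in DKO and 1.01 to 7.47 CPM in controls and missed the threshold (1.10 ± 0.36, adjusted p = 0.055), though DESeq2 and limma-voom called it. With the 4 high-Myl7 controls left out, which leaves 2 controls, Nupr1 did not pass at 1.83.

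Enzymes of serine synthesis and of the folate cycle rose in 8 of 20 tested members and 1 fell (median 0.20). Phgdh, the first enzyme of serine synthesis, had 36.7 CPM in the lowest, a median of 105 and 133 CPM in the highest DKO library, against 4.56, 6.76 and 12.6 CPM in controls (log2 fold change 3.73 ± 0.34, adjusted p = 8.6e-06). The groups did not overlap, with DKO 79 lowest among DKO and control 13 highest among controls. Mthfd2, the mitochondrial methylene-tetrahydrofolate dehydrogenase, had 46.5, 95.3 and 136 CPM in DKO and 7.70, 9.18 and 14.2 CPM in controls (3.31 ± 0.25, 2.2e-06). It was the folate enzyme with the largest fold change of the list, and its groups did not overlap. Shmt1, the cytosolic serine hydroxymethyltransferase, had 41.1, 43.8 and 49.2 CPM in DKO and 19.3, 25.0 and 28.0 CPM in controls (0.89 ± 0.09, 9.2e-06). Its DKO libraries were close together, and DKO 79 did not stand apart from them. The mitochondrial Shmt2 rose by 0.67 (adjusted p = 0.00013). Psat1, the next enzyme after Phgdh, stood at 1.48 ± 0.35 (0.011), with control 13 at 30.7 CPM above the lowest DKO library at 19.2 CPM.

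Amino acid uptake genes rose in 6 of 19 tested members and none fell (median 0.18). Slc7a3, a transporter of arginine and lysine, had 1.84 CPM in the lowest, a median of 10.4 and 23.7 CPM in the highest DKO library, against 0.137, 0.242 and 0.369 CPM in controls (log2 fold change 5.56 ± 0.57, adjusted p = 2.3e-05). All 6 DKO libraries were above all controls, but DKO 79 lay far below the other DKO libraries. Slc7a11 had 27.0, 28.1 and 31.7 CPM in DKO and 13.8, 18.4 and 27.2 CPM in controls, with 4 DKO libraries above all controls (0.59 ± 0.13, 0.0041). Slc7a6 rose by 0.39 (0.00058), and Slc3a2, the heavy chain that carries several of these transporters to the membrane, by 0.75 (0.0052), a call that ended with the 4 high-Myl7 controls left out (0.70).

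Amino acid enzymes rose in 9 of 19 tested members, none fell, and the median was 0.31. Asns had 42.3 CPM in the lowest, a median of 94.0 and 159 CPM in the highest DKO library, against 6.33, 6.97 and 8.81 CPM in controls (log2 fold change 3.78 ± 0.28, adjusted p = 1.9e-06). DKO 79, the lowest DKO library, was still above every control. Cth, the cystathionine lyase that makes cysteine, was scarce, with 0.728, 1.23 and 2.21 CPM in DKO and 0.138, 0.231 and 0.427 CPM in controls (2.35 ± 0.35, 0.00025). Glul, glutamine synthetase, had 121, 126 and 163 CPM in DKO and 58.1, 61.6 and 69.4 CPM in controls (1.07 ± 0.08, 2.8e-07). Its DKO libraries lay close together apart from a high DKO 29, and none overlapped a control. Aldh18a1, which starts proline synthesis from glutamate, rose by 0.43 (0.00034).

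Cytosolic tRNA synthetases rose in 13 of 20 tested members; all 20 had a positive log2 fold change, none fell, and the median was 0.42. Sars, the seryl enzyme, had 96.6 CPM in the lowest, a median of 149 and 192 CPM in the highest DKO library, against 61.9, 68.5 and 71.5 CPM in controls (log2 fold change 1.15 ± 0.13, adjusted p = 4.2e-05). Nars, the asparaginyl enzyme, had 136, 180 and 234 CPM in DKO and 102, 107 and 109 CPM in controls (0.81 ± 0.11, 8.5e-05). Gars stood at 146, 191 and 265 CPM in DKO and 100, 105 and 123 CPM in controls (0.89 ± 0.12, 0.00011). For each of these 3 enzymes the controls were tightly grouped, the groups did not overlap, and DKO 35 was highest and DKO 79 lowest. Cars and Iars, the cysteinyl and isoleucyl enzymes, rose by 0.67 and 0.58 (9.3e-05 and 9.5e-05).

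Both mitochondrial stress hormones rose. Fgf21 had 589 counts over the 6 DKO libraries and 3 over the 6 controls, a ratio of 232 after scaling to library size (exact 95% interval 79 to 1130, counting error only; adjusted p = 2.7e-05 by edgeR). It was at 0.461 CPM in the lowest, a median of 2.75 and 6.22 CPM in the highest DKO library, against 0.0548 CPM in the highest control. Gdf15 had 8.12, 14.2 and 27.7 CPM in DKO and 1.16, 1.52 and 3.12 CPM in controls (log2 fold change 3.28 ± 0.35, 2.8e-05), with control 13 apart from the other controls. Ret, the signalling partner of the GDF15 receptor in the brainstem, was scarce here and stood at -0.79 (0.021); without DKO 29 it did not pass at -0.76, nor did it without the 4 high-Myl7 controls at -0.99.

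The strength of these rises differed among DKO libraries in a shared way. Over the 46 genes called up in the 6 lists, DKO 79 was the lowest DKO library for 33 and the highest for 0, and its median log2 ratio to the control mean was 0.40. DKO 35 was highest for 27 and DKO 29 for 13, with medians of 0.92 and 0.87, while DKO 33, 55 and 69 had 0.69, 0.61 and 0.55. DKO 79 also had the highest Rhot1 level, 136 CPM, against 107 to 120 CPM in the other 5 DKO libraries. This is a description of 6 libraries, and no relation between the measures was tested.

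By the rule for named genes, 12 protein-coding genes had the largest rises without overlap, and 7 of them, Slc7a3, Asns, Phgdh, Mthfd2, Trib3, Gdf15 and Nupr1, are described above. The largest was Vmn2r3, annotated as a vomeronasal receptor, with 4823 counts over the DKO libraries and 5 over the controls (ratio 1140, exact 95% interval 488 to 3510). It had 0.553 CPM in the lowest, a median of 23.9 and 46.1 CPM in the highest DKO library, against at most 0.044 CPM in a control. DKO 79 was again far below the rest. Its adjusted p was 7.1e-05 by edgeR, but limma-voom (8.92) and the fit without the 4 high-Myl7 controls (9.22) did not call it, and its reads may be shared with near-identical receptors.

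Krt18 and Krt8, keratins that pair in simple epithelia, both rose. Krt18 had 35.0 CPM in the lowest, a median of 61.4 and 89.98 CPM in the highest DKO library, against 3.55, 5.89 and 12.9 CPM in controls (log2 fold change 3.22 ± 0.31, adjusted p = 1.4e-05). Krt8 had 7.71, 17.6 and 24 CPM in DKO and 0.984, 1.26 and 5.07 CPM in controls (3.14 ± 0.42, 0.0002). Neither overlapped, DKO 69 was lowest and DKO 29 highest for both, and control 13 stood above the other controls for both. Both also stand in the list of epicardial and mesothelial markers, of which the 7 other tested members had no call. The list's median was -0.80, its summed level with both keratins was 120 to 185 CPM in DKO and 70.8 to 141 CPM in controls, and the part of such cells in the rise was not tested. The muscle filament gene Des rose by 0.33 (0.0034), and of 17 intermediate filament genes tested 3 rose and 1 fell (median 0.04).

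Stretch and hypertrophy genes rose in 8 of 21 tested members and 1 fell (median 0.49). Nppa, which encodes atrial natriuretic peptide, had 90.9 CPM in the lowest, a median of 252 and 787 CPM in the highest DKO library, against 15.7, 26.2 and 87.5 CPM in controls (log2 fold change 3.37 ± 0.58, adjusted p = 0.0015). Control 13 reached almost to DKO 79, and the other controls were far lower. Without the 4 high-Myl7 controls Nppa did not pass (3.76); 69.2% of its exonic bases lie inside other genes, so its counts may cover only part of the transcript. Nppb, which encodes brain natriuretic peptide, had 78.8, 152 and 208 CPM in DKO and 21.7, 43.1 and 81.9 CPM in controls (1.61 ± 0.36, 0.0078), with 5 DKO libraries above all controls. Myc had 22.1, 38.1 and 47.9 CPM in DKO and 9.28, 12.7 and 21.4 CPM in controls, a narrow separation (1.43 ± 0.22, 0.0005). Xirp2, an actin-binding repair protein of the intercalated disc, rose by 1.39 (0.0043), but not with high-Myl7 controls left out (0.99) or with atrial transcripts as a covariate (1.01). Bdnf, a neurotrophin and the last of the 12 largest rises, had 8.67, 10.5 and 18.6 CPM in DKO and 1.68, 2.51 and 6.17 CPM in controls (1.98 ± 0.29, 0.00031). Its groups did not overlap, and control 62 was well above the other controls.

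**Figure D3:**
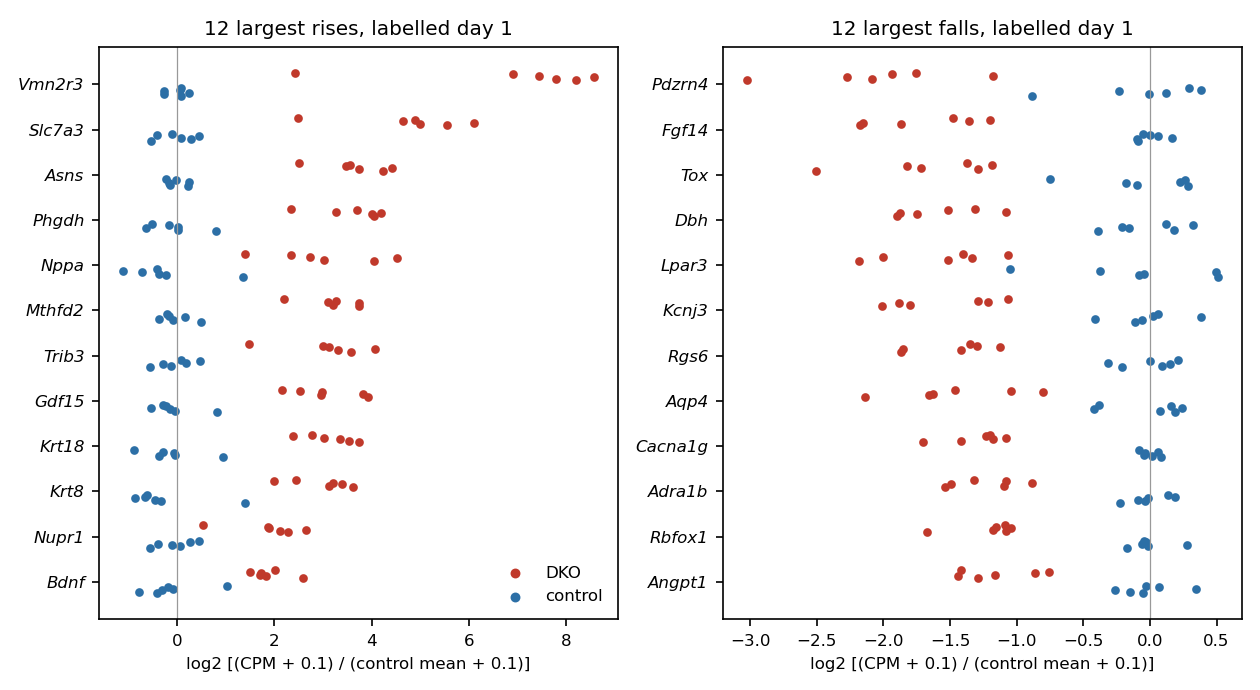
The 12 largest rises (left) and falls (right) among protein-coding genes at labelled day 1, as log2 of CPM plus 0.1 over the control mean plus 0.1. Each point is a library, DKO in the upper row of each gene and control in the lower. DKO 79 is the lowest DKO point for Vmn2r3, Slc7a3, Asns, Phgdh, Nppa, Mthfd2, Trib3, Gdf15 and Nupr1. The groups of all 24 genes are apart because the rule that chose them required it.

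Among abundant genes, those averaging at least 500 CPM in either group, Ankrd1 had the largest rise. This stretch-responsive titin-binding protein had 1310 CPM in the lowest, a median of 2320 and 2850 CPM in the highest DKO library, against 716, 1010 and 1850 CPM in controls (log2 fold change 1.08 ± 0.23, adjusted p = 0.0056). Control 13, at 1850 CPM, overlapped the lowest DKO library. S100a1, a calcium sensor of the sarcoplasmic reticulum and sarcomere, had 473, 493 and 598 CPM in DKO and 295, 328 and 367 CPM in controls (0.63 ± 0.07, 1.3e-05), without overlap. Ivns1abp, an actin-binding kelch protein, rose by 0.55 (7.3e-05), the lysosomal protease Ctsd by 0.48 (0.00097) and the mitochondrial chaperone Hspa9 by 0.44 (0.0029). In Hspa9, 1 DKO library lay within the control range.

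The 12 largest falls, chosen by the same rule, included 5 genes described with their lists below, Kcnj3, Rgs6, Cacna1g, Adra1b and, as a sodium channel partner, Fgf14. Pdzrn4, a PDZ and RING domain protein, had 4.58 CPM in the lowest, a median of 9.36 and 16.8 CPM in the highest DKO library, against 20.5, 39.6 and 49.5 CPM in controls (log2 fold change -1.96 ± 0.28, adjusted p = 0.0003). Fgf14, an intracellular partner of voltage-gated sodium channels, had 12.8, 18.4 and 25.4 CPM in DKO and 54.5, 57.2 and 65.4 CPM in controls (-1.67 ± 0.15, 7.1e-06). Dbh, the enzyme that makes noradrenaline, had 3.14, 3.81 and 5.61 CPM in DKO and 9.15, 11.9 and 15.1 CPM in controls (-1.57 ± 0.16, 8e-06). In all 3 genes the groups were apart, as the rule required, and DKO 29 was the lowest library. The HMG-box factor Tox had a log2 fold change of -1.61 (0.00019), the lysophosphatidic acid receptor Lpar3 -1.55 (0.001) and the water channel Aqp4 -1.40 (0.00032), in each case with DKO 29 lowest. Angpt1, the vessel-stabilising ligand of Tie2, had 9.24, 10.8 and 14.9 CPM in DKO and 21, 24.6 and 32.2 CPM in controls (-1.15 ± 0.13, 2.3e-05). Rbfox1, a splicing regulator whose gene spans 1526 kb, had 31.5, 46.2 and 48.8 CPM in DKO and 89.7, 98.4 and 122 CPM in controls (-1.20 ± 0.10, 1.7e-06). Its other 5 DKO libraries lay above 44 CPM, with DKO 29 alone below.

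Abundant genes that fell most were Tcap, Fhl2, Pcdh7, Fgf13 and Ctnna3. Tcap, the telethonin that caps titin at the Z-disc, had 208 CPM in the lowest, a median of 289 and 395 CPM in the highest DKO library, against 380, 521 and 855 CPM in controls (log2 fold change -0.90 ± 0.21, adjusted p = 0.01), with a small overlap. Fhl2, a LIM protein of the sarcomere, had 988, 1140 and 1300 CPM in DKO and 1580, 1900 and 2320 CPM in controls (-0.78 ± 0.09, 2.5e-05). The protocadherin Pcdh7 had 340, 402 and 436 CPM in DKO and 620, 661 and 717 CPM in controls (-0.76 ± 0.06, 9.6e-07). Neither of these 2 genes overlapped. Fgf13, like Fgf14 a sodium channel partner, fell by 0.67 (1.1e-05), and Ctnna3, the alphaT-catenin of the intercalated disc, by 0.64 (2.2e-05).

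Adrenergic and cyclic nucleotide signalling had 14 falls and 2 rises among 28 tested genes, with a median log2 fold change of -0.28. In the heart, noradrenaline acts on beta receptors, which raise cyclic AMP through adenylyl cyclases, and on alpha1 receptors. Adra1b, an alpha1 receptor, had 18 CPM in the lowest, a median of 22.7 and 28.3 CPM in the highest DKO library, against 44.9, 51.6 and 59.7 CPM in controls (-1.23 ± 0.11, adjusted p = 2.2e-06). Adrb1, the main beta receptor of cardiomyocytes, had 1.94, 2.24 and 3.34 CPM in DKO and 3.66, 4.29 and 4.75 CPM in controls (-0.86 ± 0.13, 0.00033). Both were lower in every DKO library than in any control. Rgs6, which shortens signalling through Gi proteins and so limits the muscarinic response, had 55.9, 78.5 and 93.9 CPM in DKO and 165, 212 and 237 CPM in controls (-1.47 ± 0.13, 5.8e-06). Adcy5, a major cardiac adenylyl cyclase, had 41.9, 49.8 and 56.5 CPM in DKO and 63.5, 71.4 and 93.1 CPM in controls (-0.59 ± 0.09, 0.00035). With the length trend removed, 9 of the 28 fell; the phosphodiesterases Pde4b, Pde4d and Pde3a and the anchor Akap6 were among the genes that no longer passed, at -0.18, -0.21, -0.16 and -0.04.

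Calcium handling genes fell in 11 of 29 tested members and S100a1 alone rose (median -0.30). Cacna1g, a T-type calcium channel of pacemaker and conducting cells, had 9.53 CPM in the lowest, a median of 13.4 and 14.7 CPM in the highest DKO library, against 29.6, 31.0 and 33.0 CPM in controls (log2 fold change -1.30 ± 0.09, adjusted p = 2.3e-07). Cacnb2, the beta subunit of the L-type channel, had 210, 240 and 295 CPM in DKO and 365, 394 and 512 CPM in controls (-0.74 ± 0.09, 4.2e-05). In both genes all DKO libraries were below all controls. The auxiliary subunit Cacna2d1 fell by 0.55 (4.1e-05), and the release channel Ryr2 stood at -0.61 (0.002). Cacna1c, the pore of the L-type channel, stood at -0.54 (0.015), a value that did not pass with the length trend removed (-0.35).

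Potassium channels fell in 9 of 22 tested members and none rose (median -0.27). Kcnj3, the GIRK1 subunit opened by muscarinic receptors, had 8.85 CPM in the lowest, a median of 12.4 and 17.1 CPM in the highest DKO library, against 27.0, 35.5 and 46.8 CPM in controls (log2 fold change -1.51 ± 0.17, adjusted p = 3.7e-05). Its partner Kcnj5 fell by 0.64 (7.5e-05). Kcnj2, which carries the inward rectifier current that holds the resting potential, had 5.27, 5.94 and 8.64 CPM in DKO and 10.3, 14.8 and 18.7 CPM in controls (-1.14 ± 0.16, 0.00016). Kcnn2, a calcium-activated channel, had 49.9, 63.5 and 68.8 CPM in DKO and 86.7, 93.2 and 103 CPM in controls (-0.61 ± 0.07, 2.6e-05). None of these 3 channels with listed levels overlapped between groups.

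Sodium and pacemaker channel genes fell in 7 and rose in 2 of 19 tested members (median -0.17). Hcn4, the main pacemaker channel of the sinus node, had 0.0806 CPM in the lowest, a median of 0.357 and 0.463 CPM in the highest DKO library, against 1.07, 1.28 and 1.57 CPM in controls (log2 fold change -1.97 ± 0.27, adjusted p = 0.0001). It was scarce in every library, and the groups were apart. Markers of the conduction system as a list had 5 falls and no rise among 8 tested (median -1.04), with a summed level of 108 to 135 CPM in DKO and 143 to 182 CPM in controls. Of these 5, Shox2, Cpne5 and Etv1 did not pass without the 4 high-Myl7 controls (-0.39, -0.35 and -0.22), while Hcn4 and Cacna1g did. Atrial muscle markers had 2 rises and 3 falls among 12 (median -0.60). Myl7 and Sln, a regulator of the calcium pump in atrial muscle, fell with log2 fold changes of -4.41 ± 1.12 and -4.54 ± 0.93 (adjusted p = 0.02 and 0.0047). Their groups overlapped, since control 22 was as low as the DKO libraries. For Myl7, control 62 at 16.9 CPM also lay below DKO 35 at 17.3 CPM. Neither Myl7 nor Sln was called by limma-voom (-3.88 and -3.97) or without the 4 high-Myl7 controls (-0.70 and -1.17), and with atrial transcripts as a covariate Myl7 reversed to 0.29. Both of those fits condition on Myl7 or on atrial genes, so their values for atrial genes follow in part from how they were made. With the atrial covariate the number of falls was 10 for calcium handling, 8 for potassium and 5 for sodium and pacemaker genes. Without the 4 high-Myl7 controls it was 12, 10 and 6. The part that the atrial content of the controls has in the falls of channel genes was not tested beyond these fits.

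Cell contacts and anchors of the contractile apparatus fell in part. Intercalated disc genes had 9 falls and no rise among 23 tested (median -0.21), led by Ctnna3 and by Cdh2, the cardiac N-cadherin, which fell by 0.47 (adjusted p = 0.00024). Dystrophin complex and costamere genes had 7 falls and no rise among 27 (median -0.10). Sgcd, the delta-sarcoglycan, had 119 CPM in the lowest, a median of 124 and 133 CPM in the highest DKO library, against 164, 189 and 209 CPM in controls (log2 fold change -0.60 ± 0.06, 1.1e-05), and every DKO library was below every control. The laminin chain Lama2 fell by 0.47 (0.00027). The anchor proteins Ank2 and Ank3 passed at -0.35 and -0.36 but not with the length trend removed (-0.16 and -0.17), and 4 disc genes then fell.

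Sarcomere genes had 13 falls and 5 rises among 40 tested (median -0.14). Palld, the actin-bundling palladin, had 526 CPM in the lowest, a median of 597 and 618 CPM in the highest DKO library, against 824, 891 and 948 CPM in controls (log2 fold change -0.61 ± 0.06, adjusted p = 3.4e-06). Trim54, a muscle RING-finger protein of the Z-disc and microtubules, went the other way, with 34.7, 43.1 and 58.0 CPM in DKO and 12.4, 19.4 and 27.0 CPM in controls (1.21 ± 0.18, 0.00037). Both genes separated the groups in full. Tmod1, which caps thin filaments, fell by 0.28 (0.001). Skeletal muscle markers, which include myosin heavy chains with near-identical sequences that could share reads, had 6 rises and 1 fall among 10 (median 1.32). Myh3, the embryonic heavy chain, stood at 2.04 (1.7e-05) and Myh1 at 1.63 (8.4e-07), while the summed level of the list was 1449 to 1694 CPM in DKO and 1252 to 1677 CPM in controls. The sum takes in Ckm, which also stands in the list of genes known to rise after birth in heart. It therefore does not give the level of the heavy chains.

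Transcription and splicing factors of the heart had falls and no rise. Of 25 cardiac transcription factors tested, 9 fell (median -0.25). Tbx5, required for the conduction system and chamber identity, had 12.6 CPM in the lowest, a median of 15.8 and 18.3 CPM in the highest DKO library, against 23.9, 28.3 and 33.9 CPM in controls (log2 fold change -0.88 ± 0.10, adjusted p = 2.1e-05). Gata6 had 28.5, 35.8 and 43.7 CPM in DKO and 45.8, 56.5 and 59.0 CPM in controls (-0.63 ± 0.09, 0.00013). Both were apart, Gata6 only narrowly because control 25 was low. Hopx and Zfpm2, cofactors of cardiac development, fell by 0.51 and 0.53 (0.00012 and 0.00014). Muscle splicing factors had 8 falls among 25 (median -0.16), of which 4 remained as a count with the length trend removed. Khdrbs3 had 18.1, 20.9 and 24.4 CPM in DKO and 27.1, 32.5 and 42.9 CPM in controls (-0.66 ± 0.11, 0.00048). Nuclear receptors had 6 falls and no rise among 28 (median -0.14), which were 2 with the length trend removed or without control 22 or DKO 29, and 3 without control 62 or DKO 35. The mineralocorticoid receptor Nr3c2 had 23.7, 32.9 and 36.8 CPM in DKO and 46.9, 53.4 and 77.0 CPM in controls (-0.88 ± 0.13, 0.00026). Hlf, an output factor of the circadian clock, had 12, 14.1 and 17.2 CPM in DKO and 24.2, 28.1 and 31.5 CPM in controls (-0.98 ± 0.10, 5.8e-06), and of 19 clock genes tested 2 fell.

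Mitochondrial chaperones, proteases and import genes had 8 rises and 1 fall among 22 tested (median 0.10). Lonp1, the matrix protease, had 35.7 CPM in the lowest, a median of 48.2 and 53.3 CPM in the highest DKO library, against 23.8, 25.4 and 32.5 CPM in controls (log2 fold change 0.78 ± 0.11, adjusted p = 0.00014), and the groups did not overlap. The chaperonin Hspd1 rose by 0.30 (0.002). Endoplasmic reticulum chaperones had 2 rises and 5 falls among 22 (median -0.12), but the falls were 1 with the atrial covariate, without the 4 high-Myl7 controls or without pseudogenes. The falls were also 1 when control 25, control 56 or DKO 29, 33, 35 or 69 was left out, 2 without control 14, DKO 55 or DKO 79, and 3 without control 13. Hspa5, the main chaperone of that compartment, had 677, 733 and 756 CPM in DKO and 723, 816 and 886 CPM in controls and passed narrowly (-0.17 ± 0.06, 0.049); leaving out any of 10 libraries, all but controls 13 and 22, ended its call at -0.18 to -0.14. The other ER fall with the smallest p, Manf, stood at -0.27 (0.011), and at -0.10 without the 4 high-Myl7 controls, where it did not pass, as it did not in a fit of all 24 libraries. Cytosolic heat shock genes had 2 rises and 1 fall among 20 (median 0.13), and NRF2 and glutathione genes 3 rises among 22 (median 0.11). Hmox1, the haem oxygenase, had 9.67, 11.2 and 13.2 CPM in DKO and 5.70, 7.06 and 8.02 CPM in controls (0.71 ± 0.11, 0.00029).

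Lysosomal genes rose in 13 of 30 tested members and fell in 2 (median 0.14). Ctsd had 614 CPM in the lowest, a median of 758 and 889 CPM in the highest DKO library, against 479, 522 and 610 CPM in controls, a separation of only a few CPM between the nearest libraries; 63.7% of its exonic bases lie inside other genes. Grn, progranulin, rose by 0.42 (adjusted p = 0.0005), and the hexosaminidase subunit Hexa by 0.37 (0.00099). Mitophagy and autophagy genes had 4 rises and 2 falls among 23 (median -0.01). Optn, a ubiquitin-binding receptor of damaged mitochondria, had 68.3, 86.3 and 104 CPM in DKO and 40.7, 44.8 and 47.7 CPM in controls (log2 fold change 0.96 ± 0.08, 2.1e-06). Sqstm1, the adaptor p62, had 248, 283 and 306 CPM in DKO and 188, 212 and 236 CPM in controls (0.39 ± 0.07, 0.0016). In both the DKO libraries were all higher. Proteasome subunits had 2 rises among 25 (median 0.04), translation factors 4 among 26 (0.07) and ribosomal proteins 6 among 39 (0.20), with no fall in any of the 3 lists. The count for ribosomal proteins was 32 without the 4 high-Myl7 controls and 33 with the atrial covariate. With 1 library left out it was 3 (DKO 29 or 35), 11 (DKO 79), 15 (control 14) or 24 (control 13), and the count for translation factors was 2 without DKO 29, 33 or 35.

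Glycolysis had 7 rises and 1 fall among 25 tested genes (median 0.17); the rises were 4 without DKO 29 and 11 without control 13. Pgam1, the phosphoglycerate mutase, had 124 CPM in the lowest, a median of 137 and 169 CPM in the highest DKO library, against 85.9, 91.3 and 114 CPM in controls (log2 fold change 0.62 ± 0.09, adjusted p = 0.00018). Aldoa, the muscle aldolase, had 2410, 2650 and 2880 CPM in DKO and 1780, 2040 and 2240 CPM in controls (0.38 ± 0.06, 0.00064), and neither gene overlapped between groups. Fatty acid oxidation had 4 rises among 25 (median 0.10), which were 2 without control 22, control 25, DKO 29 or DKO 55. The groups of Acot2, a mitochondrial thioesterase, were apart at 371, 458 and 497 CPM in DKO and 239, 301 and 321 CPM in controls (0.61 ± 0.09, 0.00016). Fabp3, the heart fatty acid binding protein, had 5940, 6130 and 6350 CPM in DKO and 4930, 5000 and 5250 CPM in controls (0.28 ± 0.04, 0.00038). The values of Acot2 and Fabp3 did not pass in a fit of all 24 libraries. The TCA cycle and pyruvate list had 5 rises among 31 (median 0.04), led by Pck2, the mitochondrial PEP carboxykinase (0.67, 0.0018). Nuclear subunits of the respiratory chain had 2 rises among 36 (median 0.01), Cox6a1 at 0.60 (0.0041) and Cox8a at 0.33 (0.01; 0.19 and not past with the length trend removed). Lists of ketone and branched-chain amino acid use, lipid storage and sterol synthesis had 2, 3 and 0 rises and 1, 2 and 2 falls among 20, 25 and 21 genes. Ppm1k, the phosphatase that activates branched-chain amino acid breakdown, fell by 0.54 (2.2e-05), although all its exonic bases lie inside other genes.

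Mitochondrial motility, fusion, fission and cristae genes had 1 rise and 3 falls among 28 tested (median -0.04), and Rhot1 itself was 1 of the falls. Mitochondrial DNA replication and transcription genes had no call among 18 by edgeR, DESeq2 or limma-voom, with 1 higher and 2 lower at an unadjusted p of 0.05.

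Of p53 targets, BCL2 family members and death receptors, 10 rose and 1 fell among 28 tested (median 0.09). Aen, a p53-induced nuclease, rose by 0.36 (adjusted p = 0.00092), the death receptor Tnfrsf10b by 0.54 (0.0014) and the cell cycle inhibitor Cdkn1a by 0.52 (0.0019), the last of which did not pass in a fit of all 24 libraries. Bcl2l11, the pro-apoptotic BIM, had 20.2 CPM in the lowest, a median of 29.0 and 37.6 CPM in the highest DKO library, against 45.6, 58.0 and 74.0 CPM in controls (log2 fold change -1.01 ± 0.14, 0.00018), without overlap. Hypoxia genes had 4 rises and 2 falls among 21 (median -0.02), and growth factor genes 4 of each among 39 (median -0.10), with 2 rises without control 22, control 56 or DKO 29. Bmp7 had 12.6, 16.6 and 22.8 CPM in DKO and 3.55, 6.72 and 15.8 CPM in controls (1.15 ± 0.29, 0.016), with control 13 among the DKO libraries. Immediate early, interferon, imprinted, collagen and muscle size lists had 2, 2, 1, 0 and 1 rises and 1, 0, 0, 1 and 1 falls among 24, 25, 20, 31 and 22 genes, and tubulin and motor genes 1 rise and 2 falls among 29.

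Proliferation genes were not called. Neither the 26 G2 and M phase genes nor the 25 replication genes had a call by edgeR, DESeq2 or limma-voom, and at an unadjusted p of 0.05 there were 0 higher and 1 lower, and 0 of either. Without the 4 high-Myl7 controls 14 and 15 of them were called higher. Summed levels were 769 to 1095 CPM in DKO and 587 to 1706 CPM in controls for the G2 and M phase list, so the controls spread more widely than the DKO libraries.

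**Figure D4:**
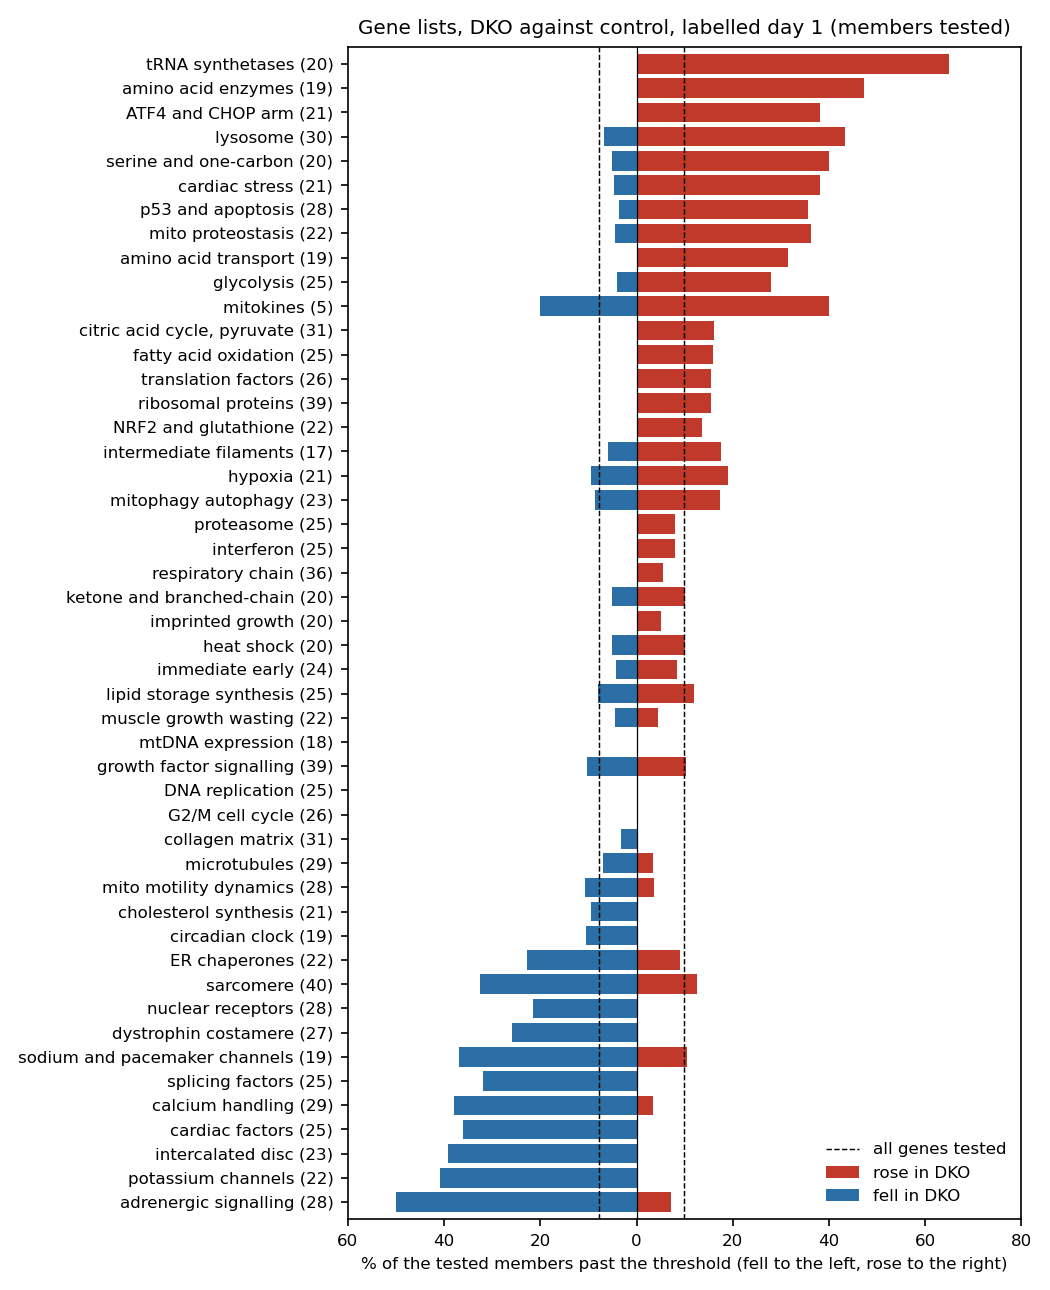
Percent of the tested members of each gene list that rose (right) or fell (left) in DKO at labelled day 1, with dashed lines at 9.81% and 7.79% for all genes tested. Those lines include pseudogenes, and for protein-coding genes alone the shares were 6.11% and 8.27%. Stress response, amino acid and lysosome lists extend to the right and adrenergic, calcium, channel and disc lists to the left.

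Markers of the cell types of the ventricle were called to different extents. Cardiomyocyte markers had 1 rise and 4 falls among 10 tested (median -0.16), and Ryr2 and Tnnt2, the cardiac troponin T, stood at -0.61 and -0.35. Fibroblast markers had 1 fall among 10, with a summed level of 5932 to 6949 CPM in DKO and 5563 to 7000 CPM in controls. Endothelial markers had 1 rise and 1 fall among 10, at 1823 to 2049 CPM in DKO and 1756 to 2082 CPM in controls. No endocardial, lymphatic, mural, macrophage, neutrophil or red cell marker passed by edgeR among 8, 5, 10, 12, 6 and 8 tested; at an unadjusted p of 0.05 there were 1, 0, 1, 0, 0 and 1 higher and 0, 0, 1, 0, 0 and 0 lower. Macrophage markers summed to 122 to 170 CPM in DKO and 125 to 186 CPM in controls, and red cell markers to 10739 to 24925 CPM in DKO and 11814 to 20444 CPM in controls. Lymphocyte markers had 1 rise among 5, and Schwann cell and nerve markers 1 rise and 1 fall among 8. For each of these types the summed levels of the groups overlapped.

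The 12 libraries labelled day 7 share no library with these, and the same fit there called 177 genes (1.02%), 119 higher (0.686%) and 58 lower (0.334%). Total counts there were 22345262 to 30453874 in DKO and 17334498 to 27272982 in controls. Median correlations with the own group were 0.985 to 0.987 in DKO and 0.982 to 0.986 in controls. At labelled day 1 they were 0.990 to 0.992 and 0.985 to 0.990. The part of depth and spread in the smaller number of calls was not tested. Both comparisons called 145 genes, all in the same direction, which is 4.75% of those called at labelled day 1 and 81.9% of those called at labelled day 7. Of the 884 protein-coding rises, 766 (86.7%) had a positive log2 fold change at labelled day 7, with medians of 0.42 and 0.17 at labelled day 1 and day 7. Of the 1197 falls, 1001 (83.6%) were negative, with medians of -0.36 and -0.15. Both sets were chosen by their call at labelled day 1, which favours larger values there. Their medians therefore cannot show that the effect was smaller at labelled day 7. Over all 14475 protein-coding genes, 46.8% were positive at labelled day 7. The test of the difference itself, in a fit of all 24 libraries, called 187 genes (1.08%), 133 with a higher (0.766%) and 54 with a lower (0.311%) log2 fold change at labelled day 1, and 40 and 49 of these were protein-coding. That count was unstable: 1 library left out moved it to between 90, without DKO m1124 of labelled day 7, and 287, without control 13, and several other settings moved it as well. With detection of Eif2s3y as a covariate, a fit chosen after seeing the data, it was 177, and the calls at labelled day 7 were 212.

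For 3 stress genes with large rises, no difference between the labelled ages passed the threshold. Asns had log2 fold changes of 3.78 at labelled day 1 and 3.45 at labelled day 7 (difference 0.33, adjusted p = 0.76), Phgdh 3.73 and 3.06 (0.66, 0.47), and Sars 1.15 and 1.22 (-0.08, 0.92). Chac1 differed, at 1.10 and 5.99 (-4.90, 0.00018). Nupr1 had 2.02 and 3.62 (-1.60, 0.046), a call that ended in 19 of 24 fits with 1 library left out, at -1.70 to -1.45, and by limma-voom (-1.63). Krt18 and Krt8 had 3.22 and 3.14 at labelled day 1 but 0.89 and 0.42 at labelled day 7, differences of 2.32 and 2.70 (0.007 and 0.011). S100a1 and Optn had 0.63 and 0.96 at labelled day 1 and 0.02 and 0.27 at labelled day 7, differences of 0.60 and 0.69 (0.0025 and 0.0046).

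Several falls were larger at labelled day 1. Fgf14 had -1.67 at labelled day 1 and -0.51 at labelled day 7 (difference -1.17, adjusted p = 0.0032), Kcnj3 -1.51 and -0.21 (-1.31, 0.015), and Rgs6 -1.47 and -0.47 (-1.0, 0.012). The calls of Kcnj3 and Rgs6 ended with atrial transcripts as a covariate, at -0.77 and -1.01, as did those of S100a1 at 0.53 and Optn at 0.62. Pcdh7 had -0.76 and -0.30 (-0.46, 0.019). Among rises, Prune2, a BCH domain protein, had 74.7, 110 and 156 CPM in DKO and 25.4, 30.4 and 50.3 CPM in controls at labelled day 1 (log2 fold change 1.75 ± 0.20, 5.7e-05). Its log2 fold change at labelled day 7 was 0.05 (difference 1.69, 0.00052). Of the 27 differences past the threshold among named genes, 14 kept the call under each single library left out and 13 did not. With atrial transcripts as a covariate 7 of the 27 kept it, and with detection of Eif2s3y as a covariate 24 did. Over libraries with Eif2s3y alone, which leaves 2 DKO and 2 controls at labelled day 7, 15 kept it, and among those that did not were Krt18, Krt8, Nupr1, Fgf14 and Pcdh7 (1.88, 2.15, -1.96, -1.21 and -0.24).

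**Figure D5:**
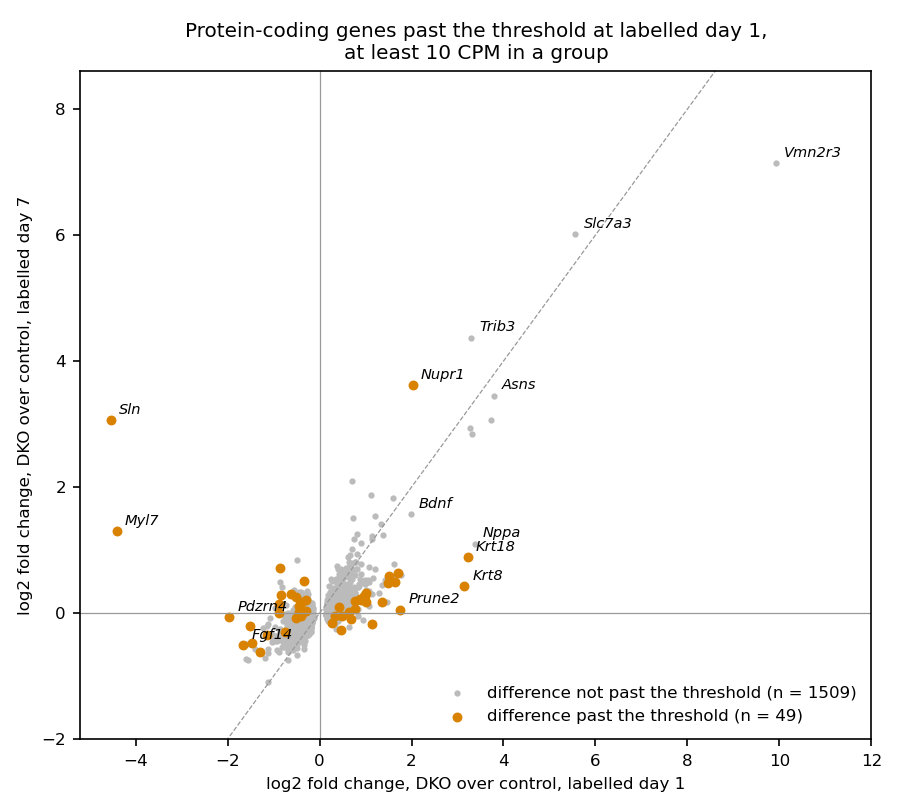
Log2 fold change of DKO over control at labelled day 1 (horizontal) and labelled day 7 (vertical) for 1558 protein-coding genes past the threshold at labelled day 1 and at 10 CPM or more. Orange points are 49 genes whose difference between the labelled ages passed the threshold, and grey points the other 1509. Slc7a3 and Asns lie near the dashed line of equal values, and Krt18 and Krt8 lie high only on the horizontal axis.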

How the data were processed

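The deposited values were raw read counts per gene in whole numbers, 1 unpooled column for each library, made by the authors from polyadenylated RNA. The submitters' processing notes name GRCm39 as genome build, and bcl2fastq and STAR (2.4.2a) as tools; which tool and annotation made the counts, and how overlapping genes were handled, is not given in the sources used here. Per the labels' protocols, a low-input cDNA kit was used, and no use of strand was stated, so reads of genes that overlap on opposite strands may not be told apart. Libraries were grouped by their labelled genotype and age.

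Counts of the 39396 listed genes were filtered with edgeR's filterByExpr (minimum count 10) over the 4 groups, leaving 17352, and scaled by TMM. The main test was edgeR 4.0.16's robust quasi-likelihood F-test in R 4.3.3 on the 12 libraries labelled day 1, with Benjamini-Hochberg adjustment over all genes tested and a threshold of 0.05. The difference between the labelled ages was an interaction term in a fit of all 24 libraries. CPM are counts scaled to library size after TMM. The SE was derived from F, as the absolute log2 fold change over its square root. Values given for a group are its lowest, median and highest library unless a range is stated, and intervals cover counting error only.

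Named genes were Rhot1 and Rhot2; the 12 largest rises and falls among protein-coding genes past the threshold without overlap and averaging at least 10 CPM in the higher group; the 5 largest rises and falls among those averaging at least 500 CPM; up to 4 members of each list by p-value; and the 5 largest differences between ages in each direction. Other list members are given as values. A few genes that these rules name are not reported here. The comparison, its gene lists and these rules were chosen with earlier results of these data known. Gene spans, classes and overlaps came from the GENCODE annotation in which all 39396 identifiers were found, and promoters from RefSeq on GRCm38.p6, another build than that of the counts.

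Alternatives were DESeq2 size factors, DESeq2 1.42.0, limma-voom (limma 3.58.1), no filter, genes of at least 10 CPM, counts thinned to the smallest library, no pseudogenes, atrial transcripts as a covariate, libraries over 50 CPM of Myl7 left out, all 24 libraries in 1 fit, the trend with gene span removed, and each library left out. Detection of the Y-linked Eif2s3y (over 1 CPM), as a covariate or as a condition for use, was added after seeing the data. The test was checked on simulated counts. No pair of libraries of a group agreed within sampling noise (the smallest chi-square over its degrees of freedom was 5.69 among 60 pairs), so none was merged as a repeated deposit; this does not show that they came from separate animals.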

Additional observations from a re-analysis of the deposited data

Results flagged for a closer look

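Of 158 sets of 6 values examined, 18 had a library whose gap to its neighbour, as a share of the range, exceeded Dixon's 95% critical value, where chance flags about 1 in 20. Control 13 was the library that stood apart in 10 of them. It was high for Phgdh at 12.6, Nppa at 87.5, Gdf15 at 3.12, Krt18 at 12.9, Krt8 at 5.07, Ankrd1 at 1850, Bmp7 at 15.8 and Pgam1 at 114 CPM, and low for Fgf13 at 540 CPM. Its median correlation with the other controls, 0.985, was the last of the 10. Without control 13 the number of genes past the threshold was 3624.

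Among other controls, 62 was high for Bdnf at 6.17 and Cacnb2 at 512 CPM, 22 was high for Rbfox1 at 122 CPM, and 25 was low for Gata6 at 45.8 CPM. Among DKO libraries, 29 was low for Rbfox1 at 31.5 CPM and high for Glul at 163 CPM, and its median correlation with the other DKO libraries stood apart at 0.992. DKO 69 was high for Adrb1 at 3.34 CPM.

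The effect of genotype differed between the labelled ages in 27 named genes by the interaction test, given as log2 fold change at labelled day 1 minus that at labelled day 7. It was higher at labelled day 1 for Krt8 (2.70), Krt18 (2.32), Prune2 (1.69), Myh3 (1.62), Bmp7 (1.32), Tmem116 (1.19), Myh1 (1.14), Myh4 (1.06), Optn (0.69), Shmt1 (0.66), S100a1 (0.60) and Asl (0.54). It was lower for Sln (-7.61), Mybphl (-6.64), Myl7 (-5.73), Chac1 (-4.90), Pdzrn4 and Shox2 (both -1.90), Nupr1 (-1.60), Kcnj3 (-1.31), Fgf14 (-1.17), Rgs6 (-1.0), Tbx5 (-0.89), Angpt1 (-0.80), Cacna1g (-0.69), Npas2 (-0.57) and Pcdh7 (-0.46). Without any 1 library, 14 of the 27 kept their call: Krt18, Krt8, Fgf14, Kcnj3, Rgs6, S100a1, Pcdh7, Shmt1, Optn, Prune2, Mybphl, Chac1, Myh1 and Myh3. With atrial transcripts as a covariate 7 of the 27 kept their call, 19 lost it and Myl7 reversed. Limma-voom did not call 7 of the 27, among them Sln (-6.81), Mybphl (-4.93) and Myl7 (-4.62).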

How the results depend on the processing

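The 3053 calls were 1966 over genes of at least 10 CPM and 1929 without pseudogenes, where fewer genes were tested. Fewer genes were not the only change without pseudogenes, since 1834 of the 2270 calls still tested there were kept. Of all genes tested, 9.81% rose and 7.79% fell. Without pseudogenes 6.51% rose, and with no filter on low counts, where more genes were tested, 6.42% rose and 4.54% fell. Leaving out 1 library gave 2307 to 3624 calls, with 8.02 to 11.3% rising and 5.27 to 9.56% falling; the lowest total was without DKO 29 and the highest without control 13. Rhot1 ranged over -0.47 to -0.39 in these fits. The 187 differences between ages were 364 by DESeq2, 114 without the filter, 71 over genes of at least 10 CPM, 84 with thinned counts, 55 without pseudogenes, 63 with the atrial covariate, and 90 to 287 with 1 library left out. With Eif2s3y, chosen after seeing the data, they were 177 as a covariate and 250 over libraries that have it. The fit without libraries over 50 CPM of Myl7 could not be made for it, because all 12 libraries labelled day 7 exceed that level. With atrial transcripts as a covariate, Mybphl and Myl7 reversed to 0.35 and 0.29 and the difference of Myl7 to 0.16, where the covariate is itself made from atrial transcripts, Myl7 included. With the length trend removed Celf2 reversed to 0.0089; the cause was not tested. Of 297 named fold changes, 211 kept direction and side of the threshold without the high-Myl7 libraries, 224 with the covariate, 244 without the length trend and 256 in a fit of all 24 libraries; the other settings kept between 274 and 296, apart from genes of at least 10 CPM, with 259 of 262. One library left out moved 7 of 30 list counts of 4 or more, and 37 of 66 smaller ones, by over 1.5 times. Under each single library left out, 230 of 296 called values kept their call. No paired analysis was possible because no library name is shared between groups. Depth limits genes near or under 1 CPM, such as Hcn4, Cth and the control levels of Fgf21.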
